A study of Zea mays with 4 samples.

Results

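The comparison of in vitro germinated pollen (GP) with mature pollen (MP) of maize covered 66 distinct mature miRNA sequences, 21 of them known and 45 predicted. They were all sequences with at least 10 reads in GP or MP, counted once however many miRNA names carry them, of 123 with any read in the 2 libraries and 181 in the whole table. Small RNA of 18 to 30 nt from the inbred line B73 was sequenced after 18 PCR cycles with a single library of each tissue. For GP, pollen was cultured for 30 min in a liquid medium, where over 90% of the grains germinated. MP was pollen shaken from tassels, from collections that germinated at over 90% when tested. Pollinated silks (PS), harvested 30 min after excess pollen was applied and loose grains were shaken off, and unpollinated mature silks (MS) served only as a background here. The libraries held 10575042 clean reads in GP, 3638941 in MP, 5205129 in PS and 5775303 in MS. By the study's read numbers, cleaning removed a larger part of the raw reads in MP than in GP. A smaller share of the clean reads matched the genome in MP. Levels are given in TPM, reads scaled to the clean reads of the library, with no scaling by length.

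The labels give a single library of each pollen stage, so none of the differences could be checked against a replicate library. The study reports generally similar patterns by stem-loop RT-PCR, slightly different for a few miRNAs, miR167a/b/c/d among them. That assay was not used here. Fisher's exact test on reads, 2-sided throughout, compares the GP library with the MP library and not germination with its absence. A sequence was called higher or lower in GP at p under 0.01 and a log2 ratio of GP to MP over 1.5 in size. Intervals are exact 95% intervals, and like the limits set by 0 reads they cover counting error only, since amplified reads that carry no molecular identifier cannot be counted as separate molecules. A library is a mixture of grains, so fewer grains with a miRNA and less of it per grain cannot be told apart. The libraries hold no mRNA, and the study's RT-PCR of some predicted target genes was not used here. The levels of miRNA families abundant in silks are therefore given instead. These families were chosen with earlier results of these data known, so their low levels in pollen cannot serve as a check of the label. The 29 sequences of miR164, miR167, miR169, miR171, miR319, miR395, miR408 and miR827 summed to 8.23 TPM in GP and 20.3 TPM in MP, against 10279 TPM in PS and 7716 TPM in MS, and miR395 had 0 reads in both pollen libraries. Of the 29, 13 were detected in GP and 13 in MP. The part of this difference in the results was not tested.

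Plant miRNAs are cut by a Dicer-like enzyme from the stem of a hairpin precursor, whose 5p and 3p arms pair to form a duplex. One strand is loaded into an Argonaute protein and guides cleavage or repression of mRNAs that match it closely. In Arabidopsis the first base of a small RNA steers it to an Argonaute, with U at AGO1, A at AGO2 and C at AGO5. A pollen grain carries a stored set of RNAs into germination, when the vegetative cell puts out a tube within minutes of hydration.

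The sequences on which the known results turn are shown as RNA, 5′ to 3′, with bases 2 to 8, the seed, in capitals. The deposited table writes them with T. They comprise the 5 known sequences past the limits and, for comparison, their most abundant relatives.
miR390a/b: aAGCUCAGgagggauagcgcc
miR159h/i: uUUGGAGUgaagggagcucug
miR159a/b/f/j/k: uUUGGAUUgaagggagcucug
miR396a/b: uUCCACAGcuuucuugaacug
miR396c/d: uUCCACAGgcuuucuugaacug
miR396e/f: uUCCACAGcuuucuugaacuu
miR167a/b/c/d: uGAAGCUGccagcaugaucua
miR162: uCGAUAAAccucugcaucca

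The predicted sequences past the limits follow in the same form, from the highest to the lowest ratio. They are named by the arm and by the deposited number of the hairpin. The table counts their hairpin loci, and genomic coordinates were not used here.
3p arm of hairpin 7: aAAUCCUUugggaaaaugagg
3p arm of hairpin 6: aUAUUAAUuaaguaaucauuga
5p arm of hairpin 2: cAAAGAGAauugagggggcua
3p arm of hairpin 29: aUCACCUUcgguuuuguggcu
5p arm of hairpin 23: cGGUGUAAcacccugaauuuga
3p arm of hairpin 47: uGUUUAUAgaauguaauuuga
3p arm of hairpin 46: aAUAUUUGaucuguuagauggucu
5p arm of hairpin 35: cACCAAGUugguaagguguugg
3p arm of hairpin 27: uCCACUACgucggcaagggug
3p arm of hairpin 59: cAAUUUAGggacuaaaacgaa
5p arm of hairpin 41: aCGAACAUggugaaagcgcguggu
5p arm of hairpin 14a: aGAGGGGAuuggaggggcua
5p arm of hairpin 57: aAACACAUaugugauguagcgg
5p arm of hairpin 56: uGAAUGGUggagcuuggagcc
3p arm of hairpin 38b: aAUCCUCCucuggauuggugu
5p arm of hairpin 21: gUCUGCAAgcuuguuaaggggc

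Scaled to clean reads, the predicted sequences past the limits were mostly higher in GP, while the known ones went both ways. Of the 45 predicted sequences, 13 were higher in GP and 3 lower. Of the 21 known sequences, miR159h/i and miR390a/b were higher in GP, and miR396a/b, miR167a/b/c/d and miR162 were lower. Over all 123 sequences tested, 12.2% were higher and 8.94% lower. Over the 66 sequences with at least 10 reads in GP or MP, which hold all the higher calls, 22.7% were higher and 9.09% lower. Of the 21 known sequences 9.52% were higher and 14.3% lower. Of the 45 predicted sequences 28.9% were higher and 6.67% lower. The 57 sequences with reads but under 10 in both libraries gave 0 higher and 5 lower by Fisher's exact test. With under 10 reads in GP, the deeper library, none of these could pass the limits as higher, so that 0 was fixed in advance. The plot of levels in both libraries shows the 66 sequences.

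**Figure D1:**
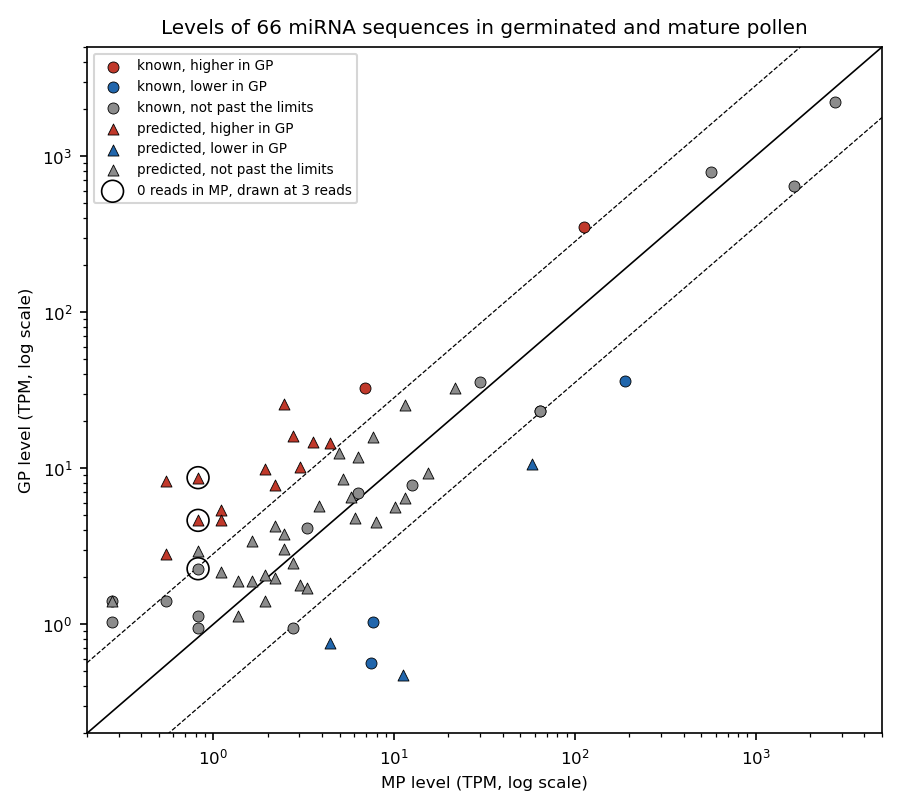
Level of each of the 66 sequences in GP (vertical axis) and MP (horizontal axis), in TPM on log scales, with known sequences as circles and predicted ones as triangles. The solid line marks equal levels and the dashed lines a log2 ratio of 1.5 in either direction. Most red points, higher in GP, are predicted sequences below 30 TPM, and ringed points had 0 reads in MP.

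The minimum of 10 reads admitted more from the deeper library. By the study's methods, predicted miRNAs also needed more than 5 reads in at least 1 library, although some listed had fewer. They could thus enter through GP, the deeper pollen library, alone, whereas known ones were matched to miRBase. It equals 0.946 TPM in GP and 2.75 TPM in MP, and a count of 0 allows up to 0.284 TPM in GP and 0.824 TPM in MP. Of the predicted sequences, 22 reached 10 reads in GP alone, 2 in MP alone and 21 in both. Of the 21 with 10 reads in both libraries, 4 were higher in GP and 1 was lower. Of the known sequences, 6 reached 10 reads in GP alone and miR162 in MP alone. At a minimum of 2.75 TPM in either library, 37 predicted and 15 known sequences were left, with the same 13 higher and 3 lower predicted calls in number. That outcome was largely fixed in advance. Each lower call had at least 10 reads in MP and could not drop out. The limits themselves ask for nearly 2.75 TPM in GP of a higher call, and the lowest, the 3p arm of hairpin 47, had 2.84 TPM. The median log2 ratio was 0.70 over the 45 predicted and 0.20 over the 21 known sequences, beside -0.15 over the 90 of all sequences tested that had reads in both libraries. With 10 reads required in both, the medians were 0.58 for predicted and -0.50 for known sequences. Just inside the minimum stood miR156k and miR169i/j/k, with 10 reads in the larger count, and the 5p arm of hairpin 48 with 12 and 5 reads in GP and MP. Just outside were the 3p arm of hairpin 26, with 1 read in GP and 9 in MP, and miR160a/b/c/d/e/g, with 2 reads in GP and 8 in MP.

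The zero of the log2 scale depends on what the libraries are scaled to. Scaling by TMM factors of the known sequences would add 1.41 to every log2 ratio, by their median ratio 1.12, and by their total reads 0.39. Among the 66 sequences the calls of 15 higher and 6 lower would then be 39 higher and 2 lower under TMM factors, 31 and 3 under median ratios, and 19 and 6 under total known reads. Directions are given here for clean reads, with exceptions beside each called sequence. Comparisons within a family or a hairpin do not depend on the scaling.

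**Figure D2:**
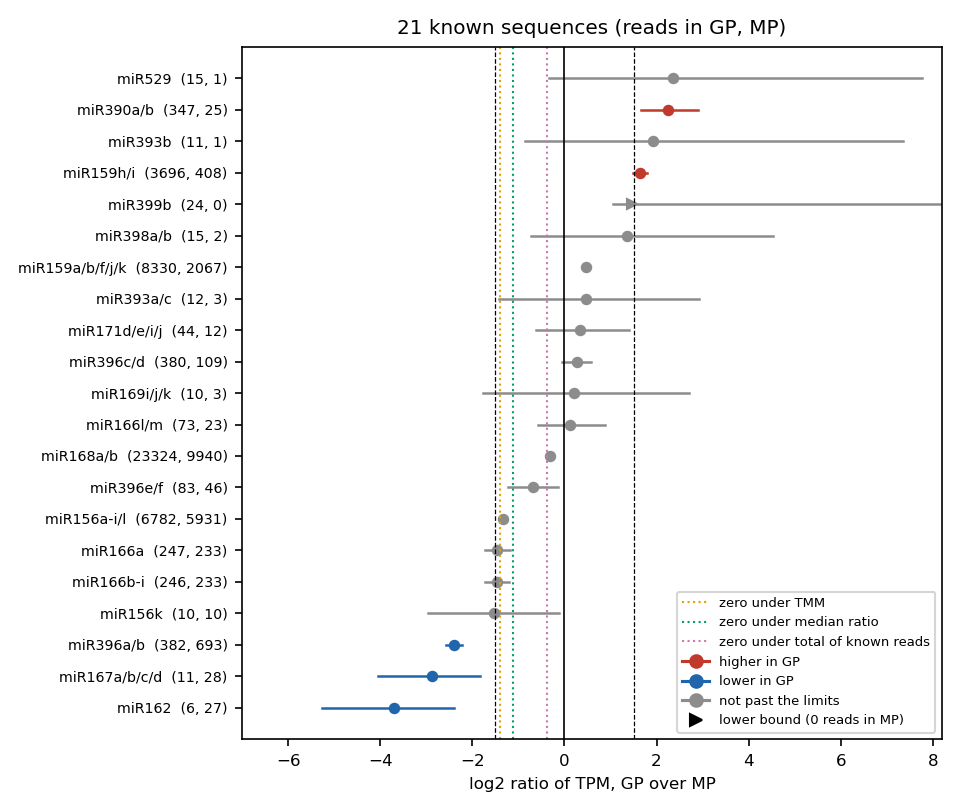
Log2 ratio of GP to MP of the 21 known sequences, with exact 95% intervals and the reads in GP and MP beside each name. Dashed lines stand at 1.5 in either direction, dotted lines where zero would lie under the other scalings, and an arrowhead marks a lower bound. miR390a/b and miR159h/i lie above the limit, and miR396a/b, miR167a/b/c/d and miR162 lie below it.

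A few sequences held most of the reads in both libraries. The 21 known sequences had 44048 reads in GP and 19795 in MP, which was 0.417% of clean reads in GP (exact 95% interval 0.413% to 0.420%) and 0.544% in MP (0.536% to 0.552%). The 45 predicted sequences had 3515 reads in GP and 896 in MP, or 0.0332% of clean reads in GP (0.0321% to 0.0344%) and 0.0246% in MP (0.0230% to 0.0263%). Of all reads of the 66 sequences, the predicted ones took 7.39% in GP and 4.33% in MP. The order of the leading sequences differed, with miR159a/b/f/j/k in place 2 and the main miR156 sequence in place 3 in GP, and the reverse in MP. miR168a/b was in place 1 in both, with 49.0% of these reads in GP and 48.0% in MP.

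miR156 and miR529 regulate SPL (SBP-box) transcription factor genes. The sequence carried by miR156a through miR156i and by miR156l (miR156a-i/l) had 6782 reads (641 TPM) in GP and 5931 reads (1630 TPM) in MP. Its log2 ratio was -1.35 (-1.40 to -1.30), short of the limit, and it was 0.063 under TMM factors. It took 14.3% of the reads of the 66 sequences in GP and 28.7% in MP. miR156k, which differs from it by U14C counted from the 5′ end, had 10 reads in each library. Its log2 ratio of -1.54 had a Fisher's exact p of 0.0191. miR529 was at 15 reads in GP and 1 read in MP, a ratio of 5.16 (0.794 to 217), and was not past the limits (Fisher's exact p = 0.0884). All 6 target genes listed for miR529 were among the 25 listed for miR156a-i/l. They include tga1, ub2 and ub3, SBP-box genes of maize glume and inflorescence architecture.

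miR159 regulates MYB genes of the GAMYB type, which act in anthers and pollen. miR159h/i was higher in GP, with 3696 reads (350 TPM) in GP and 408 reads (112 TPM) in MP. The ratio was 3.12 (2.81 to 3.46) with a Fisher's exact p of 4.44e-141. It stayed past the limits under the other scalings, which only move ratios upward. Its relative miR159a/b/f/j/k was at 8330 reads (788 TPM) in GP and 2067 reads (568 TPM) in MP, a log2 ratio of 0.47 (0.40 to 0.54) that was short of the limit but past it under TMM factors, at 1.88, and median ratios, at 1.60. The pair differs by U7G within the seed, from miR159a/b/f/j/k to miR159h/i. The share of miR159h/i in the reads of both was 30.7% in GP and 16.5% in MP. The log2 ratio of miR159a/b/f/j/k minus that of miR159h/i was -1.17, with a Fisher's exact p of 1.52e-50 for the pair. In all 4 libraries miR159h/i was the less abundant, and in silks by far more, with 1.34 TPM in PS and 7.62 TPM in MS for miR159h/i against 6061 TPM in PS and 5272 TPM in MS for miR159a/b/f/j/k.

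The listed targets of both miR159 sequences overlap in 4 genes, of 6 for miR159h/i and 11 for miR159a/b/f/j/k. Among the shared ones is GRMZM2G004090, which the study annotates as an MYB domain protein, with a site for miR159h/i at positions 925 to 945 of its transcript T01. GRMZM2G139688, another MYB domain protein, is listed for miR159h/i with a site at 1399 to 1419 of its transcript T01. Sites rest on sequence match alone, with no measurement of cleavage behind them.

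Of the miRNAs of auxin signalling, miR390 and miR167 went opposite ways. miR390, which triggers the trans-acting siRNAs that repress auxin response factor genes, had 347 reads (32.8 TPM) in GP and 25 reads (6.87 TPM) in MP. Its ratio of 4.78 (3.18 to 7.48) was the largest among known sequences past the limits (Fisher's exact p = 6.30e-21). The call held under the 3 other scalings, which could only raise the ratio. miR167a/b/c/d, which targets auxin response factor genes directly, was lower in GP, at 11 reads (1.04 TPM) in GP and 28 reads (7.69 TPM) in MP. Its log2 ratio was -2.89 (-4.04 to -1.84) with a Fisher's exact p of 2.01e-09, and -1.48, just short of the limit, under TMM factors.

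The other auxin-related sequences were rare. miR393, which targets the TIR1/AFB auxin receptors, had 12 reads in GP and 3 in MP for miR393a/c, and 11 reads in GP and 1 in MP for miR393b. Neither was past the limits, with Fisher's exact p of 0.773 and 0.318. The miR393 sequences differ only in their last base, so reads of either can be counted for both. Of the 7 sequences of this list with reads, 1 was higher and 3 were lower in GP, beside 12.2% higher and 8.94% lower over all 123 sequences. The lower ones included miR160a/b/c/d/e/g, which had fewer than 10 reads in both libraries.

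miR162 and miR168 act on the silencing machinery itself, with DCL1 and AGO1 as their targets. miR162 was lower in GP, with 6 reads (0.567 TPM) in GP and 27 reads (7.42 TPM) in MP. The log2 ratio was -3.71 (-5.28 to -2.40), the lowest among known sequences with at least 10 reads, and it stayed past the limits under every scaling. miR168a/b, the most abundant sequence, was at 23324 reads (2206 TPM) in GP and 9940 reads (2732 TPM) in MP. Its log2 ratio of -0.31 (-0.34 to -0.27) was far short of the limit and lay above 0 under the 3 other scalings, at 0.079 under total known reads and 1.10 under TMM factors.

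The miR396 sequences, regulators of GRF growth genes, differed among themselves by more than those of any other family with several sequences here, with a log2 ratio of miR396a/b minus that of miR396c/d of -2.66. miR396a/b was lower in GP, with 382 reads (36.1 TPM) in GP and 693 reads (190 TPM) in MP. Its log2 ratio was -2.40 (-2.58 to -2.22) with a Fisher's exact p of 1.36e-157, and it was short of the limit at -0.99 under TMM factors and -1.27 under median ratios. miR396c/d was at 380 reads (35.9 TPM) in GP and 109 reads (30.0 TPM) in MP, a log2 ratio of 0.26 (-0.05 to 0.58). miR396e/f was at 83 reads (7.85 TPM) in GP and 46 reads (12.6 TPM) in MP, a log2 ratio of -0.69 that was 0.72 under TMM factors.

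The 3 miR396 sequences share their seed. Relative to miR396a/b, miR396e/f has the single change G21U, and miR396c/d is longer, at 22 nt against 21 nt. Of the reads of miR396a/b and miR396c/d together, miR396a/b took 50.1% in GP (46.5% to 53.7%) and 86.4% in MP (83.8% to 88.7%). The table lists 1 target gene for miR396a/b, GRMZM2G178990, which is also listed for miR396e/f. For miR396c/d it lists 18, with GRF1 (GRMZM2G034876) among them and none shared with miR396a/b. Reads shortened at the 3′ end could be counted for both miR396a/b and miR396e/f, since counts include variants of up to 2 bp in length.

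The miR166 sequences, which target HD-ZIP III genes of leaf polarity and meristems, showed how much the name decides a count. miR166a had 247 reads (23.4 TPM) in GP and 233 (64.0 TPM) in MP, with a log2 ratio of -1.45 (-1.72 to -1.19). The sequence of miR166b through miR166i (miR166b-i) is 1 base shorter and had 246 and 233 reads in GP and MP, most of which can be the same reads. Its names did not have the same counts, as miR166f and miR166h had 179 reads in GP and 218 in MP and miR166g had 180 and 218. These 3 names, all at a log2 ratio of -1.82, passed the limit, while miR166b, miR166c, miR166d, miR166e and miR166i, at -1.46, did not. Likewise miR166l had 73 reads in GP and 23 in MP, a log2 ratio of 0.13, and miR166m of the same sequence 6 reads in GP and 8 in MP, a log2 ratio of -1.95. How reads were divided between names of 1 sequence is not given in the sources used here.

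The remaining known sequences were not past the limits. miR171d/e/i/j, which targets GRAS family genes, was at 44 reads in GP and 12 in MP, with a ratio of 1.26 (0.655 to 2.62). The NF-YA regulator miR169i/j/k was at 10 reads in GP and 3 in MP, a ratio of 1.15 (0.295 to 6.49). The copper-responsive miR398a/b was at 15 reads in GP and 2 in MP, a log2 ratio of 1.37 (-0.74 to 4.54). miR399b, which acts in phosphate homeostasis, had 24 reads (2.27 TPM) in GP and 0 in MP. Its ratio to the floor of 3 reads in MP was 2.75, and the exact lower limit of its ratio was 2.07. The ratio to the floor, 1.46 on the log2 scale, was below the limit although Fisher's exact p was 0.00151, and past it under the other scalings, at 1.85 to 2.87. Of the 3 sequences of the copper list with reads, miR408/b was lower in GP, at 1 read in GP and 7 in MP, under the minimum. Of the 14 sequences of the leaf and meristem list with reads, 0 were higher in GP and 2 were lower, beside the same 12.2% and 8.94%. The sulfate regulator miR395 had 0 reads in both libraries. The lists of miR172 and of the phased siRNA triggers miR2118 and miR2275 had 2 and 5 sequences with reads, none with 10 and none past the limits.

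**Figure D3:**
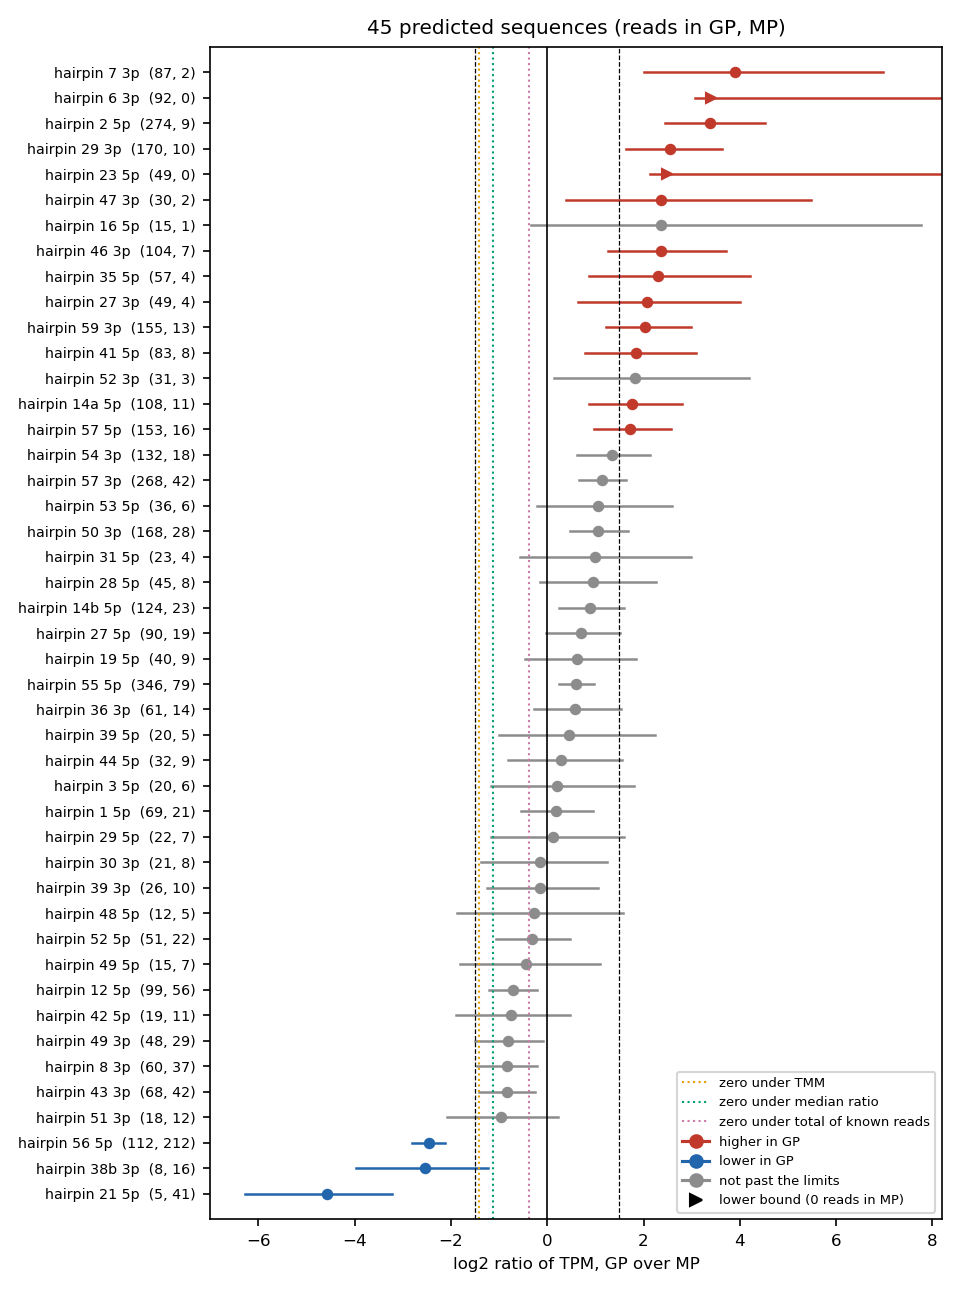
Log2 ratio of GP to MP of the 45 predicted sequences, with exact 95% intervals and the reads in GP and MP beside each name. Lines and arrowheads are as in the plot of known sequences. The 13 in red lie above the limit, the 3 in blue below it, and the intervals of sequences with few reads in MP are wide.

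The predicted sequences higher in GP included several that were near absent from MP. From hairpin 6, the 3p arm had 92 reads (8.70 TPM) in GP and 0 in MP. Its ratio to the floor of 3 reads was 10.6, with an exact lower limit of 8.41. From hairpin 23, the 5p arm, found at 6 hairpin loci, had 49 reads (4.63 TPM) in GP and 0 in MP. Its ratio to the same floor was 5.62, with an exact lower limit of 4.40. From hairpin 7, the 3p arm had 87 reads (8.23 TPM) in GP and 2 reads (0.550 TPM) in MP, a ratio of 15.0 (4.02 to 126). These sequences had at most 2 reads in either silk library.

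The 5p arm of hairpin 2 was the most abundant predicted sequence past the limits in GP. It had 274 reads (25.9 TPM) in GP and 9 reads (2.47 TPM) in MP, a ratio of 10.5 (5.44 to 23.2) with a Fisher's exact p of 1.64e-24. In hairpin 29, the 3p arm had 170 reads (16.1 TPM) in GP and 10 reads (2.75 TPM) in MP, a ratio of 5.85 (3.10 to 12.4). Next, the 3p arm of hairpin 59 followed with 155 reads (14.7 TPM) in GP and 13 reads (3.57 TPM) in MP, a ratio of 4.10 (2.33 to 7.88). Hairpin 57 gave 153 5p reads (14.5 TPM) in GP and 16 (4.40 TPM) in MP, a ratio of 3.29 (1.96 to 5.90). Their silk levels were at most 2.08 TPM.

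Among the remaining higher sequences, counts in MP ran from 2 to 11 reads. The 24-nt 3p arm of hairpin 46 had 104 reads in GP and 7 in MP, a ratio of 5.11 (2.40 to 13.0). The 24-nt 5p arm of hairpin 41 had 83 and 8, a ratio of 3.57 (1.73 to 8.54). For this arm of hairpin 41 the study prints another sequence, of 21 nt, at the same log2 ratio of 1.84. The deposited data give that sequence to the 5p arm of hairpin 44, and this conflict was not resolved. Hairpin 35 had 57 5p reads in GP and 4 in MP, and hairpin 27 had 49 and 4 3p reads, with ratios of 4.90 and 4.22. Hairpin 47, by its 3p arm, was the weakest call, with 30 reads in GP, 2 in MP and a Fisher's exact p of 0.00810. Its Benjamini-Hochberg adjusted p over the 123 sequences was 0.0249, the only value above 0.01 among the 21 calls. The 13 calls held under the other scalings, which all move the ratios upward.

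Of the 3 predicted sequences lower in GP, the 5p arm of hairpin 56 was the most abundant. It had 112 reads (10.6 TPM) in GP and 212 reads (58.3 TPM) in MP, the highest MP level among predicted sequences. Its log2 ratio was -2.46 (-2.80 to -2.12) with a Fisher's exact p of 4.37e-51, and -1.05 under TMM factors and -1.34 under median ratios, short of the limit. The study annotates its 1 listed target gene, GRMZM2G084586, as a mitogen-activated protein kinase kinase kinase. Hairpin 21 had 5 5p reads (0.473 TPM) in GP and 41 reads (11.3 TPM) in MP, a log2 ratio of -4.57 (-6.27 to -3.24) that stayed past the limits under every scaling. Hairpin 38b had 8 3p reads in GP and 16 in MP, a log2 ratio of -2.54 (-3.97 to -1.23), and -1.13 under TMM factors and -1.42 under median ratios, short of the limit.

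Some abundant predicted sequences were short of the limits. Of all predicted sequences, the 5p arm of hairpin 55 had the most reads, with 346 (32.7 TPM) in GP and 79 (21.7 TPM) in MP, a ratio of 1.51 (1.18 to 1.95). The study annotates its target gene GRMZM2G147560 as natural resistance-associated macrophage protein, a family of metal transporters. The 3p arm of hairpin 57 had 268 reads (25.3 TPM) in GP and 42 reads (11.5 TPM) in MP, a ratio of 2.20 (1.58 to 3.12). The 3p arm of hairpin 50 had 168 reads (15.9 TPM) in GP and 28 reads (7.69 TPM) in MP, a ratio of 2.06 (1.38 to 3.20), and 0 reads in both silk libraries.

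Both arms of 6 predicted hairpins had at least 10 reads in GP or MP. In hairpin 29 the arms moved apart, as the 5p arm had 22 reads in GP and 7 in MP against 170 and 10 for the 3p arm. The share of the 5p arm was 11.5% in GP (7.32% to 16.8%) and 41.2% in MP (18.4% to 67.1%), with a Fisher's exact p of 0.00353 and an adjusted p of 0.00756 over 15 pairs within hairpins and families. In hairpin 52 the 5p arm had 51 reads in GP and 22 in MP, and the 3p arm 31 and 3. Its 5p share was 62.2% in GP and 88.0% in MP (Fisher's exact p = 0.0152, adjusted p = 0.0285).

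The arms of the other 4 hairpins were not told apart. In hairpin 57 the 5p share was 36.3% in GP (31.7% to 41.1%) and 27.6% in MP (16.7% to 40.9%), although the 5p arm was past the limits and the 3p arm was not. In hairpin 27 it was 64.7% in GP and 82.6% in MP. In hairpin 49 it was 23.8% in GP and 19.4% in MP. In hairpin 39 it was 43.5% in GP (28.9% to 58.9%) and 33.3% in MP (11.8% to 61.6%). The difference between the log2 ratios of the 5p and 3p arms had intervals of -0.34 to 1.56, -3.46 to 0.33, -1.21 to 2.07 and -1.33 to 2.73 in these 4. Adjusted p ran from 0.166 to 0.825 by Fisher's exact test.

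Within known families, the pairs that differed were those of miR159, miR166 and miR396. Of the reads of miR166b-i and miR166l/m together, miR166b-i took 77.1% in GP (72.1% to 81.6%) and 91.0% in MP (86.8% to 94.2%), by the count of miR166l and with an adjusted p of 2.71e-05 in Fisher's exact test over the 15 pairs. Some of these reads can belong to both. By the count of miR166m, which names the same sequence as miR166l, the log2 ratio of -1.95 lay below the -1.46 of miR166b-i and not above it, so this difference rests on the name counted. The pairs of miR396 had adjusted p of 1.07e-54 for miR396a/b with miR396c/d, 2.23e-09 for miR396a/b with miR396e/f and 0.00712 for miR396c/d with miR396e/f. For miR159 the adjusted p was 1.14e-49. The pairs of miR156 and miR393 had adjusted p of 0.825 and 0.698 in the same test, and the miR393 sequences can share reads.

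**Figure D4:**
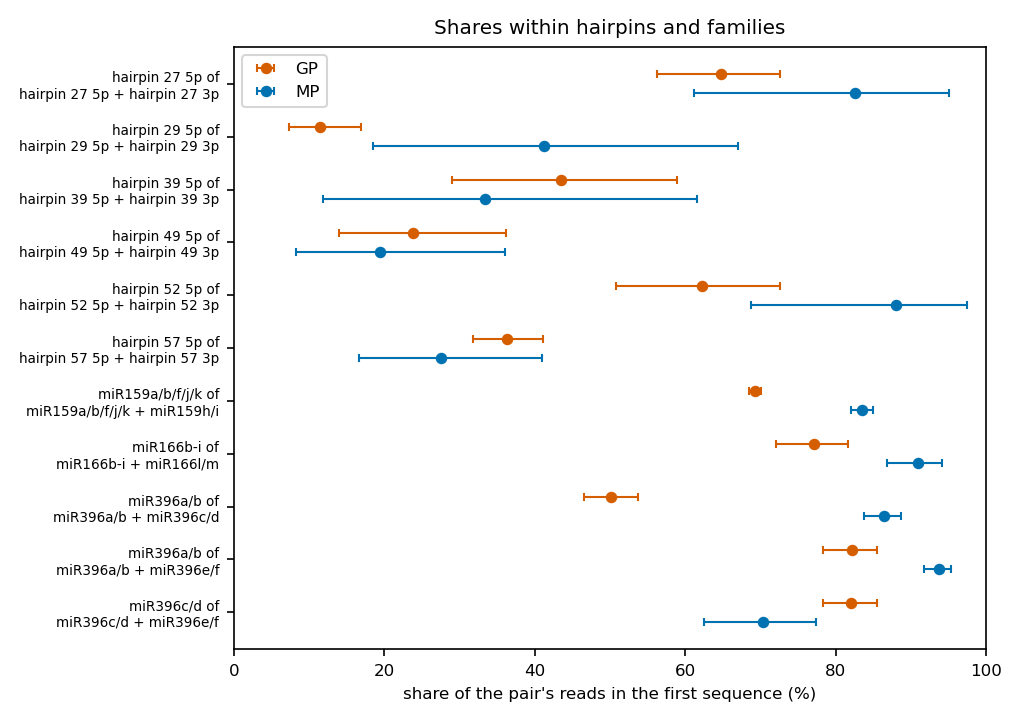
Share of a pair's reads that fell to the first sequence, in percent, in GP (orange, upper) and MP (blue, lower) with exact 95% intervals, for the 6 hairpins with both arms and 5 pairs of known sequences. The widest gap between intervals is that of miR396a/b with miR396c/d, whose first share was 50.1% in GP and 86.4% in MP, and the intervals of hairpins 27, 39, 49, 52 and 57 overlap.

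Among the 66 sequences, 6 seeds were held by more than 1 sequence, and 4 of these joined known relatives. The seed UUGGAUU joined miR159a/b/f/j/k with the 5p arm of hairpin 44, which had 32 reads in GP and 9 in MP, a log2 ratio of 0.29 (-0.81 to 1.54). The study prints the sequence of this hairpin 44 arm for the 5p arm of hairpin 41, so these counts rest on the deposited naming. The seed GAGGGGA joined the 5p arms of hairpins 14a and 14b. The first is the second without its last base, so reads of either can be counted for both. Hairpin 14a had 108 reads in GP and 11 in MP and was past the limits, with a ratio of 3.38 (1.81 to 6.97), and hairpin 14b had 124 and 23, a ratio of 1.86 (1.18 to 3.03), and was not. Their ratios were not told apart (adjusted p = 0.212, interval of the log2 difference -0.31 to 2.11).

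A run of the 6 bases GAGGGG was found in 6 of the 45 predicted and 0 of the 21 known sequences. Of all 181 distinct sequences, 8 or 4.42% held it on the strand shown, and 2.21% held its reverse complement CCCCUC. All 8 were among the 109 predicted sequences, of which they were 7.34%. The 6 are printed with the run in capitals.
5p arm of hairpin 2: caaagagaauuGAGGGGgcua
5p arm of hairpin 14a: aGAGGGGauugGAGGGGcua
5p arm of hairpin 14b: aGAGGGGauugGAGGGGcuaa
5p arm of hairpin 19: guuuggaggagauuGAGGGGc
5p arm of hairpin 1: auggaguggauuGAGGGGgcu
5p arm of hairpin 42: gauugagagggauugGAGGGG
They are all 5p arms, and 2 of the 6 were past the limits, both higher in GP, beside 28.9% higher among the 45 predicted sequences. Those of hairpins 14a and 14b can share reads. Hairpin 1, at 14 loci, had 69 reads in GP and 21 in MP, a log2 ratio of 0.18. Hairpin 19 had 40 reads in GP and 9 in MP, at 0.61, and hairpin 42 had 19 and 11, at -0.75. The sequences that hold the run thus spread from -0.75 to 3.39 on the log2 scale.

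By first base, known and predicted sequences were unlike. Of the 21 known sequences 19 began with U and 2, miR390a/b and miR529, with A. Of the 45 predicted sequences 20 began with A, 11 with U, 9 with C and 5 with G. Calls are given beside the 12.2% higher and 8.94% lower over all 123 sequences and the 28.9% and 6.67% over the 45 predicted ones. Many sequences entered by their reads in GP alone. Of the 9 that began with C, 4 were higher and 0 lower, and 5 had reached 10 reads in GP alone. They had summed levels of 118 TPM in GP and 46.4 TPM in MP. Of the 20 that began with A, 7 were higher and 1 was lower, and 9 had reached 10 reads in GP alone, with 134 TPM in GP and 76.1 TPM in MP. Of the 11 that began with U, 2 were higher and 1 was lower, and 5 had reached 10 reads in GP alone, with 68.4 TPM in GP and 103 TPM in MP. Of the 5 that began with G, 0 were higher and 1 was lower, and 3 had reached 10 reads in GP alone. Their levels summed to 11.7 TPM in GP and 20.9 TPM in MP. By length, 23 predicted sequences had 21 nt, 17 had 22 nt, 4 had 24 nt and 1 had 20 nt. Of those with 21 nt 6 were higher and 2 lower, and of those with 22 nt 4 were higher and 1 lower. Of the 4 with 24 nt 2 were higher and 0 lower, and the 1 with 20 nt was higher.

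By arm, 7 of 19 predicted 3p sequences were higher and 1 lower, and 6 of 26 5p sequences were higher and 2 lower. Over all 45 predicted sequences 28.9% were higher and 6.67% lower. Target sites are listed for 20 of the 21 known but 20 of the 45 predicted sequences. Among the 13 predicted sequences higher in GP, 4 have a listed target gene. For hairpin 14a 6 are listed, with GRMZM2G109464, annotated by the study as a RING/FYVE/PHD zinc finger protein, also listed for the 5p arm of hairpin 1.

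In silks, most predicted sequences of the pollen comparison were rare, and most known ones were abundant. Because the 66 were chosen by reads in pollen, this is a description with no test. Of the 45 predicted sequences, 36 stood higher in GP and in MP than in either silk library, and 3 stood lower. Of the 21 known sequences, miR159h/i and miR396e/f stood higher by the same measure, and 15 stood lower. The 13 predicted sequences higher in GP summed to 133 TPM in GP and 23.6 TPM in MP, beside 2.31 TPM in PS and 6.75 TPM in MS. The 3 lower ones summed to 11.8 TPM in GP and 73.9 TPM in MP, beside 0 reads in PS and 1.39 TPM in MS.

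By its label PS held pollen tubes that had entered the silk. The 45 predicted sequences together were at 71.9 TPM in PS and 99.2 TPM in MS. Of the 45 predicted sequences, 28 had 0 reads in PS and 11 in MS, with 10 in both. A count of 0 allows up to 0.576 TPM in PS and 0.519 TPM in MS. miR159h/i had 7 reads in PS and 44 in MS, and the 5p arm of hairpin 56 had 0 and 8. miR396a/b was at 137 TPM in PS and 135 TPM in MS.

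**Figure D5:**
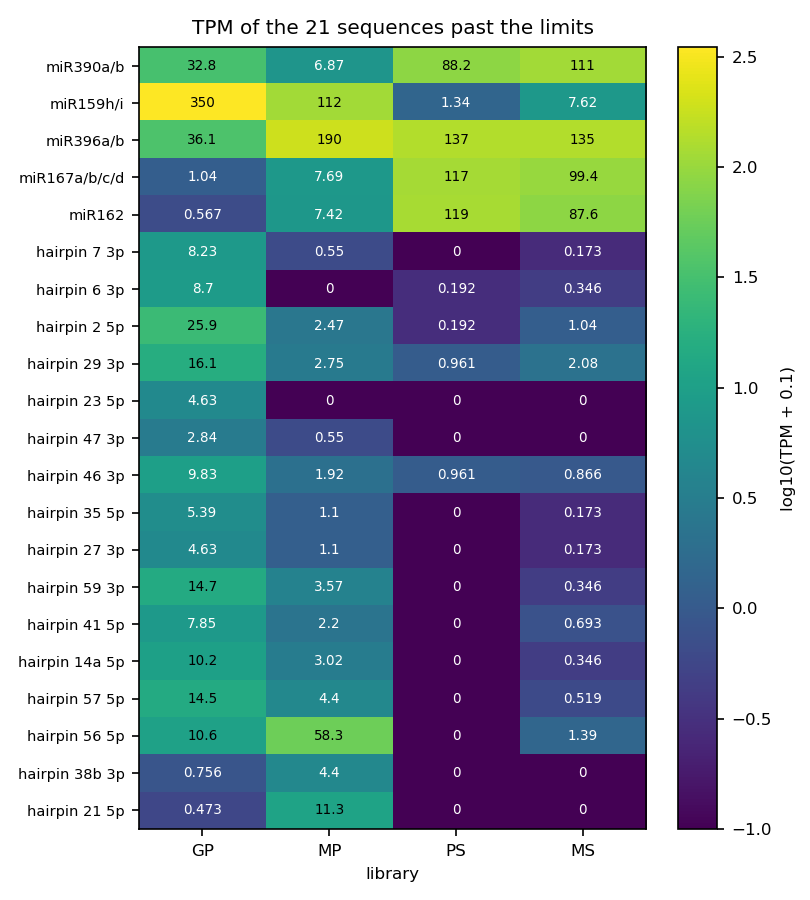
Level in TPM, printed in each cell and coloured as log10 of TPM plus 0.1, of the 5 known and 16 predicted sequences past the limits in GP, MP, PS and MS. The predicted sequences were at or below 2.08 TPM in both silk libraries, while miR390a/b, miR396a/b, miR167a/b/c/d and miR162 were above 80 TPM there.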

How the data were processed

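Per the study's methods, the authors sequenced 18 to 30 nt RNA by Solexa and mapped clean reads with SOAP to B73 RefGen_2v. They matched reads to miRBase with Blastn. Further miRNAs were predicted with Einverted, RNAfold and MirCheck and with the read minimum of the study given above. The deposited counts are whole reads per miRNA name, with length variants of up to 2 bp added by the authors. TPM as deposited is this count scaled to clean reads, and gave the clean reads of each library by division. The deposited p-values are the authors' comparisons of libraries and were not used. No per-sample column (0) was left unused. Target sites are the authors' Patscan predictions. RefSeq symbols were matched to 64 of 100 target genes with GRMZM identifiers for known and 17 of 35 for predicted sequences (assembly Zm-B73-REFERENCE-NAM-5.0).

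Each distinct sequence was counted once, using its name with the largest count summed over all 4 libraries, and T was written as U. GP was compared with MP by a 2-sided Fisher's exact test (scipy 1.17.1) of a sequence's reads against the other clean reads, with the study's limits of p under 0.01 and log2 ratio over 1.5. Ratios to a count of 0 used 3 reads as the floor and were left out where the other count did not exceed 3. Benjamini-Hochberg values were taken over the 123 sequences with reads. Pairs within a hairpin or family were all those with both sequences at 10 reads or more in GP or MP, except miR166a with miR166b-i, plus hairpins 14a and 14b, 15 in all. No edgeR or DESeq2 model was fitted, because single libraries give no residual degrees of freedom. edgeR 4.0.16 and DESeq2 1.42.0 gave only the TMM factors and median-ratio size factors. Sequences that give the same one after losing up to 2 bases were taken to share reads. The code was tested on simulated data.

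Named were all known sequences, predicted ones past the limits, the 5 predicted ones with the most reads, hairpins with both arms, shared seeds, holders of GAGGGG and sequences next to the minimum. The members, lists and named sequences were chosen with earlier results of these data known. Gene annotations quoted are the study's.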

Additional observations from a re-analysis of the deposited data

How the results depend on the processing

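No paired analysis was possible because each tissue has 1 library, and leaving out a replicate could not be run. Of the 21 calls, 17 held under the 3 other scalings. Those scalings all move the log2 ratios upward, so the 15 higher calls could not be lost. Of the 6 lower calls, 4 were lost under some of them. These were miR167a/b/c/d, miR396a/b, the 5p arm of hairpin 56 and the 3p arm of hairpin 38b. Known sequences gave 2 higher and 3 lower calls and predicted ones 13 and 3. TMM factors gave 10 higher and 1 lower known and 29 higher and 1 lower predicted sequences. Median ratio size factors gave 5 higher known, and 26 higher and 1 lower predicted. With no minimum 7 known were lower, with 10 reads in both libraries 4 predicted were higher and 1 lower, with a log2 limit of 1 6 known were lower, and with the log2 limit alone 4 known were higher. The other counts stayed within 1.5 times. The median log2 ratio of known sequences, 0.20, was 1.61 under TMM factors, 1.32 under median ratios, 0.59 under total known reads, -0.50 with 10 reads in both, -0.69 at the same TPM minimum and 0.085 with 1 read added to each count. That of predicted sequences, 0.70, was 2.11, 1.83, 1.09, 0.58 and 0.95 under the first 5 of these, and 0.65 under the last. With 1 sequence of each overlapping set, known sequences took 0.413% of clean reads in GP and 0.536% in MP.

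Of 54 named sequences, the sign of the log2 ratio turned for 9 under TMM factors, 8 under median ratios and 4 under total known reads. In that order of settings it was 1.10, 0.82 and 0.079 for miR168a/b, 1.25, 0.96 and 0.23 for the 3p arm of hairpin 39, 1.13, 0.85 and 0.11 for the 5p arm of hairpin 48, and 1.08, 0.80 and 0.061 for the 5p arm of hairpin 52. Under the first 2 settings it was 0.72 and 0.44 for miR396e/f, 0.66 and 0.37 for the 5p arm of hairpin 42, 0.60 and 0.31 for the 3p arm of hairpin 49, and 0.97 and 0.68 for its 5p arm. For miR156a-i/l it was 0.063 under TMM factors. With 1 read added it was -0.016 for the 5p arm of hairpin 29 and -0.080 for miR169i/j/k, and with the name of fewest reads -1.95 for miR166l/m. The turns under other scalings follow from the factors themselves, which add 1 constant to every log2 ratio. Sequences with under 10 reads in MP had wide intervals.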
